A study of Mus musculus with 6 samples.

Results

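Mitosis and spindle genes were described in RNA-seq libraries of injured mouse liver. The members were 42 genes given by name, and all 42 had 1 row each in a table of 14499 genes, so none was dropped. The study compared 3 libraries of wild-type liver (WT_DDC) with 3 libraries of liver carrying a hepatocyte-specific knockout of Arid1a (Arid1a_KO_DDC), the gene of a subunit of the BAF chromatin remodelling complex. All mice were 10 weeks old, of mixed C57Bl/6; 129Sv background, and wild-type and knockout mice alike were given the porphyrinogenic agent DDC for 2 weeks, which injures the liver and its bile ducts. The knockout is limited to hepatocytes while the RNA is of the total liver, the Cre line is not given in the sources used here, and nothing in the labels states that the 3 libraries of a group are 3 different mice, so the tests speak only of the variation among these 6 libraries, part of which may be technical.

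Mitosis is run by cyclin-dependent kinase 1 bound to A and B cyclins, which starts chromosome condensation and spindle assembly. Kinetochores on the centromeres attach chromosomes to the spindle, the spindle checkpoint holds anaphase back until all are attached, and the anaphase-promoting complex then destroys cyclin B and securin so that the chromosomes part and the cell divides. Hepatocytes of an adult liver are mostly quiescent and return to the cycle after injury, and the transcripts of mitotic genes are low in resting cells and rise in G2 and M phase. In total liver RNA, fewer dividing cells and less of these transcripts per dividing cell cannot be told apart, nor can dividing hepatocytes and other dividing cells.

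Many mitotic promoters hold 2 short elements near the transcription start. They are shown here as a description, and their part in the levels of the members was not tested. One is the cell cycle genes homology region (CHR), TTTGAA or TTCGAA, which binds the MuvB complexes that repress these genes in quiescence (DREAM) or activate them with B-MYB and FOXM1. The other is CCAAT, the core of the NF-Y site. Of the 42 members, 36 (all but Tpx2, Ccna2, Aurkb, Kif20a, Foxm1 and Incenp) had a promoter in the RefSeq table of GRCm38.p6 (250 bases before to 50 bases after the start), and 27 of these, 75%, held TTTGAA or TTCGAA on either strand, against 21.7% of 27025 genes with a promoter and 16.6% of the 8770 of them that were tested. Within 50 bases of the start on either side, the shares were 69.4% of members, 6.12% of all genes with a promoter and 4.18% of the genes tested. CCAAT, on either strand, was found in 77.8% of members and 41.1% of all genes, and at least 2 copies in 55.6% and 13.3%. The last letter of CCAAT can be the first of an adjoining TTTGAA, and a match describes letters, not a bound site.

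The following 130 bases, from 100 before to 30 after the start on the gene's own strand, are of 3 members that were highest in knockout replicate 1 (Ccnb2, Cdc20, Cenpa), 2 that were highest in knockout replicate 2 (Cdk1, Kif11) and 1 that was highest in wild-type replicate 2 (Prc1). The start is that of the RefSeq promoter, which for many members, here Cenpa and Prc1, is not the start of the RefSeq gene. That of Cenpa, base 30666886, lies inside the gene span of 30666777 to 30674830. Capitals mark TTTGAA and CCAAT, or their reverse complements TTCAAA and ATTGG.
Ccnb2: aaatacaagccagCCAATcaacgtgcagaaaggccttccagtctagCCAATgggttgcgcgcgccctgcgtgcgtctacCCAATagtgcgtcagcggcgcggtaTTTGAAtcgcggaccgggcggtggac
Cdc20: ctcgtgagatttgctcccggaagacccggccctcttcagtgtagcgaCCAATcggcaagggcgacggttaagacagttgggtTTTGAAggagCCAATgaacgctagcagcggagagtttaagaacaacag
Cenpa: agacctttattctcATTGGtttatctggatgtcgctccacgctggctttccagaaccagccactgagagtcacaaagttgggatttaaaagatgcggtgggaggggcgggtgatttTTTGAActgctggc
Cdk1: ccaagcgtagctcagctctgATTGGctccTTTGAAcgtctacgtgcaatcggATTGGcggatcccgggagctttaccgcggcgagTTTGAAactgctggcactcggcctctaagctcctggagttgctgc
Kif11: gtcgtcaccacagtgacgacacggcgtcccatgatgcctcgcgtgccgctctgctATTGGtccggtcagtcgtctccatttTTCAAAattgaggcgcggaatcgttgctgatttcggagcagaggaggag
Prc1: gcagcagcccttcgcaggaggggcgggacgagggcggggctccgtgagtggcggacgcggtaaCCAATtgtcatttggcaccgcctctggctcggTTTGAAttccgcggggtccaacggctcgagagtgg
They are from GRCm38.p6 at chr9:70421525-70421654 (minus strand), chr4:118437314-118437443 (minus), chr5:30666786-30666915 (plus), chr10:69352883-69353012 (minus), chr19:37376282-37376411 (plus) and chr7:80294351-80294480 (plus). In Cdc20, Cdk1, Kif11 and Prc1 a TTTGAA, or its reverse complement, began 18, 15, 19 and 5 bases before the start (Cdk1 held another 71 bases before it), and in Ccnb2 and Cenpa it began at base 5 and base 17 after it. Members highest in different libraries held TTTGAA or TTCGAA in like shares, 10 of 13 for knockout replicate 1, 9 of 12 for knockout replicate 2 and 8 of 11 for wild-type replicate 2.

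**Figure D1:**
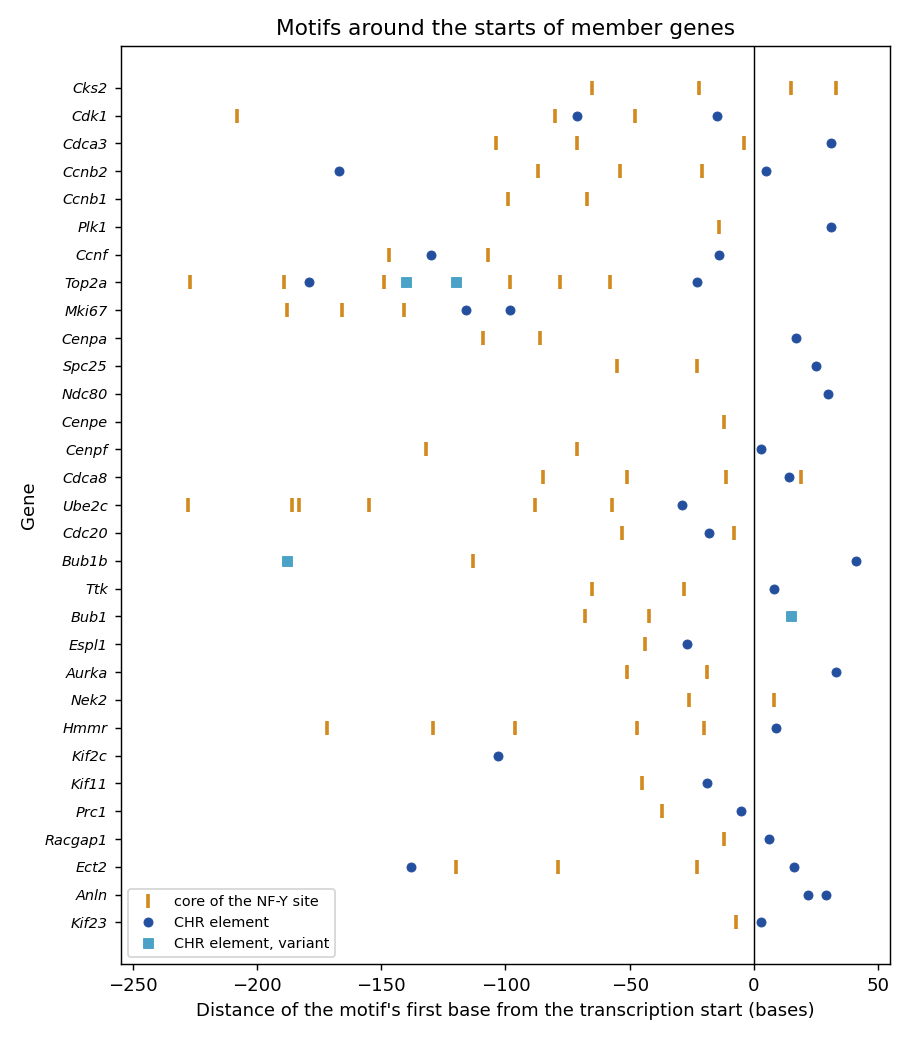
Positions of the CHR element (dark blue circles, its variant as light blue squares) and of the NF-Y core (orange bars) in the promoters of members with at least 1 match, as distance of the motif's first base from the transcription start in bases; for genes with more than 1 start, the start with the lowest coordinate is drawn. Most CHR elements lie within 50 bases of the start, with NF-Y cores mostly upstream of them.

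Of each library 11280 to 11712 genes had at least 1 FPKM (fragments per kilobase of transcript, scaled to the mapped fragments of the library), and the depth estimated from steps between low values was 0.904 to 1.16 times that of wild-type replicate 1, while absolute depth is unknown. Each estimate was the most common ratio to wild-type replicate 1 among low values, shared by only 8 to 24 of 179 to 219 genes. Arid1a itself was at 7.85, 5.48 and 5.98 FPKM in wild-type replicates 1 to 3 and at 6.61, 5.01 and 3.81 FPKM in knockout replicates 1 to 3, overlapping groups that in total liver, and without knowing the deleted exons, do not check the labels. Replicate 1 of both groups stood apart: these libraries carry the numbers L0566 and L0567 in the labels and the others L0602 to L0605, the Y-linked gene Ddx3y was at 0.0527 and 0.0227 FPKM in them and at 9.27 to 11.3 FPKM in the other 4, and the next principal component after the genotype (29.4% of the variance) set them apart. The members' differences are therefore also given for L0602 to L0605 alone. Hepatocyte markers fixed for the tissue check had a summed level of 41416 to 53923 FPKM in every library, led by the albumin gene Alb.

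No member passed the test for a difference between knockout and wild type. The 36 members with at least 1 FPKM in at least 3 libraries were tested with limma on log2(FPKM + 1) within the fit over all 11839 genes tested, of which 0.135% were called higher, 0.355% lower and 0.49% either way in knockout (Benjamini-Hochberg adjusted p under 0.05). Of the members 0 were higher and 0 lower, with adjusted p-values from 0.456 to 0.989, and 0 reached an unadjusted p under 0.05, which 11.1% of all genes did (4.65% on the higher side). The median SE was 0.296 for the members and 0.193 for all genes tested, so a typical member needed a larger difference to reach that p. The log2 difference was above 0 for 30 of the 36 tested members, 83.3% against 50.6% of all genes tested, with a median of 0.17 against 0.0034 for all genes. That tilt depended most on wild-type replicate 1: without it 15 of 36 differences were above 0 and the median was -0.04, and without the libraries L0566 and L0567 they were 9 of 36 and -0.11. The count was 25 of 36 without knockout replicate 1 (median 0.08) and 22 of 36 without knockout replicate 2 (0.10). It was 31 of 36 without wild-type replicate 3 (0.18), 34 of 36 without knockout replicate 3 (0.34) and 36 of 36 without wild-type replicate 2 (0.32). In L0602 to L0605 alone the differences that stayed above 0 among members described in full were 0.389 for Foxm1, 0.348 for Birc5, 0.215 for Kif11, 0.16 for Cdca3, 0.0913 for Top2a, 0.0714 for Cdk1 and 0.0267 for Cks2. Those that stayed below 0 were -0.458 for Ccnb1, -0.429 for Plk1, -0.365 for Ube2c, -0.349 for Prc1 and -0.286 for Nusap1, and the 11 that turned from above to below 0 are given with the alternatives in the closing section. The 95% intervals ranged from -1.03 at the lowest bound to 1.40 at the highest, and those of 24 members lay within 1 log2 unit on either side of 0. Their half-width had a median of 0.703 with 3 libraries a group. Smaller changes could thus not be told from 0 for many members, even before adjustment over all genes.

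**Figure D2:**
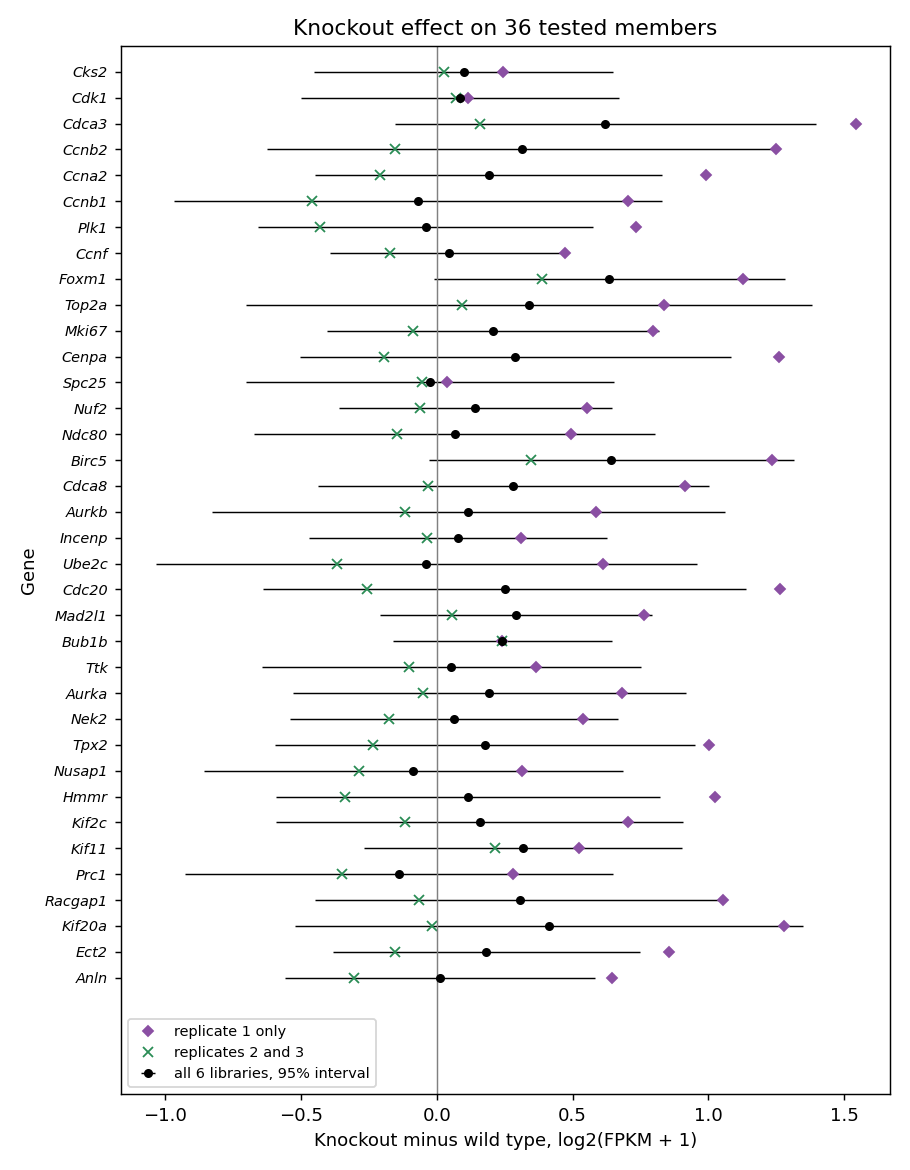
Knockout minus wild type difference in log2(FPKM + 1) for the 36 tested members (black points with 95% limma intervals, 3 libraries a group), beside the difference between the 2 libraries of replicate 1 (purple diamonds) and the difference of means over replicates 2 and 3 (green crosses). The black intervals all cross 0, and the diamonds lie above 0 for every gene drawn.

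Within each genotype most members were lowest in the same library. Wild-type replicate 1 was the lowest of the 6 libraries for 33 of 42 members, although it was so for 24.6% of all genes tested, and knockout replicate 3 was the lowest for 6 (18.1% of all genes) and wild-type replicate 3 for 3 (11.9%). The highest library was knockout replicate 1 for 15 members (13.1% of all genes), knockout replicate 2 for 15 (17.4%) and wild-type replicate 2 for 12 (14.6%). Wild-type replicate 1, wild-type replicate 3 and knockout replicate 3 were highest for 0 members, where they were highest for 20.8%, 13.5% and 20.6% of all genes. Wild-type replicate 2 was above wild-type replicate 1 for all 42 members, with a median FPKM ratio of 2.02 and a range from 1.10 for Nek2 to 4.97 for Cenpf. In the knockout, replicate 1 was above replicate 3 for 35 members (median ratio 1.74) and replicate 2 above replicate 3 for 40 (median ratio 1.56). Mitotic transcripts were thus high in 1 wild-type and 2 knockout libraries. Those 2 knockout libraries split the members, with replicate 1 above replicate 2 for 20 of 42. The FPKM ratio of replicate 1 to replicate 2 ran from 0.443 for Top2a to 3.36 for Kif20a.

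**Figure D3:**
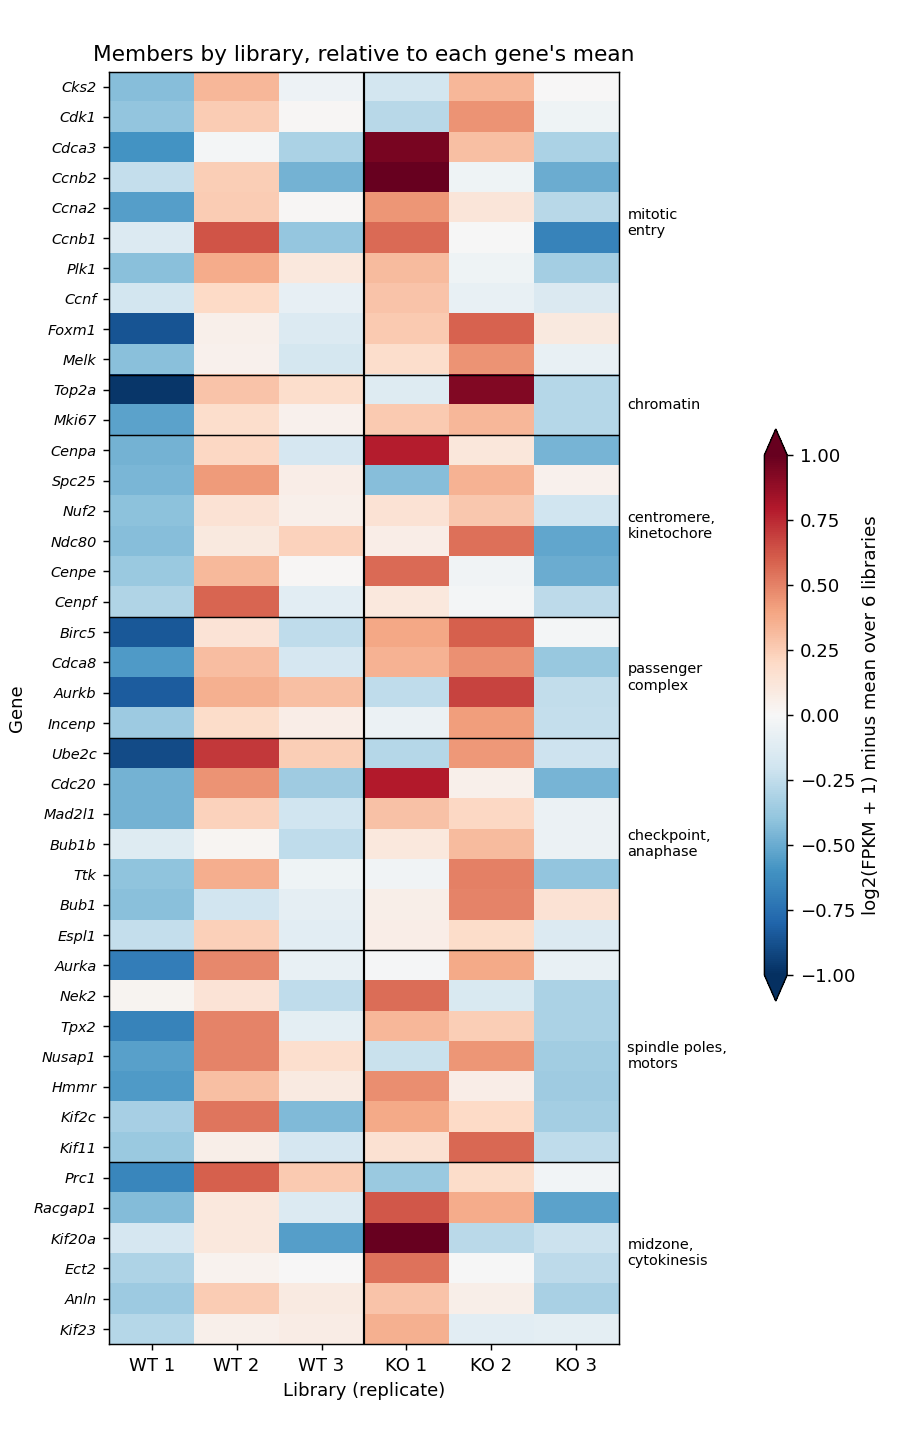
Each member's log2(FPKM + 1) minus its mean over the 6 libraries (colour, red above and blue below the mean), with genes in rows by role and libraries in columns, wild type (WT) left and knockout (KO) right of the line. Wild-type replicate 1 is blue in nearly every row, while red cells gather in wild-type replicate 2 and knockout replicates 1 and 2.

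Mean FPKM over all 6 libraries ran from 0.599 to 65.9 with a median of 3.66, below the median of 7.92 over all genes tested. There were 7 members with a mean of at least 10 FPKM, 28 between 1 and 10, and 7 under 1. The 3 highest were Cks2, Ube2c and Cdk1, which are a small cyclin-dependent kinase subunit, a ubiquitin-conjugating enzyme of the anaphase-promoting complex and the mitotic kinase. For 1 member the highest library was between 1.53 times (Ccnf) and 5.13 times (Cenpe) the lowest, with a median of 2.76.

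Among the genes of mitotic entry, 7 of 9 tested differences were above 0 and none passed. Cdk1 (chromosome 10, 69335146 to 69352938 on GRCm38, protein coding), the kinase that drives mitosis, was at 14.4, 23.2 and 19.4 FPKM in wild-type replicates 1 to 3 and at 15.7, 26.6 and 18.7 FPKM in knockout replicates 1 to 3. The groups overlapped almost fully, each with its replicate 2 highest and its replicate 1 lowest (19.0 ± 4.40 and 20.3 ± 5.66 FPKM, SD, n = 3 each; limma log2 difference 0.09, SE 0.25, adjusted p = 0.925). Cks2, which binds the kinase, was at 47.9, 81.7 and 62.4 FPKM in wild type and 56.9, 81.5 and 64.9 FPKM in knockout, the same order of replicates (0.10, SE 0.23, adjusted p = 0.906).

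The cyclins followed another order, in which knockout replicate 1 was high. Ccnb2, cyclin B2 (chromosome 9, 70407692 to 70421547), was at 6.80, 9.90 and 5.62 FPKM in wild type and at 17.5, 7.95 and 5.52 FPKM in knockout, so that 1 knockout library stood above the other 5. Its group means of 7.44 ± 2.21 and 10.3 ± 6.35 FPKM differed by less than the knockout spread (0.31, SE 0.39, adjusted p = 0.81), and without the libraries L0566 and L0567 the difference was -0.15. Ccna2, cyclin A2, which acts from S phase to early mitosis, was at 3.18, 6.30 and 5.17 FPKM and at 7.31, 5.67 and 4.07 FPKM (0.19, SE 0.27, adjusted p = 0.835). Ccnb1, cyclin B1 (chromosome 13, 100778650 to 100786570), was at 4.03, 7.57 and 3.25 FPKM in wild type and 7.21, 4.53 and 2.49 FPKM in knockout, with wild-type replicate 2 and knockout replicate 1 near each other at the top (-0.07, SE 0.38, adjusted p = 0.961). Cdca3, which recruits an F-box ligase that degrades the mitosis inhibitor WEE1, ran from 10.4 to 16.0 FPKM in wild type and was at 32.3, 20.2 and 12.8 FPKM in knockout. Its group means were 13.1 ± 2.79 and 21.8 ± 9.81 FPKM, and its difference was among the 3 largest of all members (0.62, SE 0.33, adjusted p = 0.546). It was 0.302 without knockout replicate 1 and 0.935 without knockout replicate 3. Ccnf, the F-box protein cyclin F, varied least, from 2.66 to 3.79 FPKM in wild type and 2.76 to 4.08 FPKM in knockout.

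Foxm1, the transcription factor that drives G2 and M phase genes (chromosome 6, 128362967 to 128376146), was the tested member whose groups did not overlap, a pattern that 7.09% of all genes showed in the same direction, 9.56% in the other and 16.6% in either. It was at 1.02, 2.81 and 2.34 FPKM in wild type and at 3.41, 4.54 and 2.94 FPKM in knockout, so the lowest knockout library was close above the highest wild-type one. The means were 2.06 ± 0.930 and 3.63 ± 0.823 FPKM (n = 3 each; exact permutation p = 0.1, the smallest possible with 3 against 3 libraries). The limma log2 difference was 0.64 (SE 0.27, 95% interval -0.01 to 1.28, unadjusted p = 0.053, adjusted p = 0.457), and it was 0.36 without wild-type replicate 1. Plk1, the polo-like kinase of mitotic entry and spindle poles, was at 3.29, 6.39 and 5.16 FPKM and at 6.13, 4.56 and 3.52 FPKM, with almost equal means of 4.95 ± 1.56 and 4.74 ± 1.32 FPKM (-0.04, SE 0.26, adjusted p = 0.968). Melk, a kinase of proliferating cells, was below the filter at 0.385 to 0.904 FPKM in wild type and 0.758 to 1.52 FPKM in knockout.

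Of the chromatin proteins, Mki67, the Ki-67 antigen that coats mitotic chromosomes and marks cycling cells (chromosome 7, 135689784 to 135716361), was at 1.66, 3.37 and 2.97 FPKM in wild type and at 3.63, 3.85 and 2.17 FPKM in knockout. The groups overlapped, with wild-type replicate 1 and knockout replicate 3 low (2.67 ± 0.891 and 3.22 ± 0.914 FPKM; 0.21, SE 0.26, adjusted p = 0.805). Top2a, topoisomerase 2-alpha, which untangles sister chromatids (chromosome 11, 98992943 to 99024189), was at 3.06, 8.68 and 7.99 FPKM in wild type and at 6.27, 14.2 and 5.52 FPKM in knockout. Its range over libraries, 4.62 times from the lowest to the highest, was wide in both groups, and the difference was 0.34 (SE 0.44, adjusted p = 0.817).

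The centromere and kinetochore genes overlapped between the groups as well. Cenpa, the histone H3 variant that marks centromeres (chromosome 5, 30666777 to 30674830), was at 8.93, 14.97 and 11.3 FPKM in wild type and at 22.8, 13.9 and 9.03 FPKM in knockout, with knockout replicate 1 alone above the wild-type range (0.29, SE 0.33, adjusted p = 0.793). The NDC80 complex, which grips microtubules, gave 3 members with small differences: Spc25 at -0.02, Nuf2 at 0.14 and Ndc80 at 0.07. Spc25 was at 4.78, 9.67 and 7.33 FPKM in wild type and 4.93, 9.09 and 7.18 FPKM in knockout, nearly the same values for each replicate number. The large kinetochore proteins Cenpe (0.472 to 1.39 FPKM in wild type, 0.356 to 1.82 FPKM in knockout) and Cenpf (0.270 to 1.34 and 0.305 to 0.679 FPKM) were below the filter.

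The chromosomal passenger complex, which corrects faulty attachments and then guides cytokinesis, had 4 of 4 differences above 0 and none past the threshold. Birc5, survivin (chromosome 11, 117849251 to 117855743), was at 6.95, 14.7 and 11.01 FPKM in wild type and at 17.7, 20.7 and 13.1 FPKM in knockout. Only knockout replicate 3 fell inside the wild-type range, and the means were 10.9 ± 3.90 and 17.2 ± 3.83 FPKM (0.64, SE 0.28, 95% interval -0.03 to 1.32, exact permutation p = 0.2, limma adjusted p = 0.472). Birc5 and Foxm1 had the 2 largest differences of the tested members, and without wild-type replicate 1 that of Birc5 was 0.38. Aurkb, the kinase of the complex, was at 1.80, 5.41 and 5.16 FPKM and at 3.20, 6.97 and 3.21 FPKM (0.12, SE 0.40, adjusted p = 0.938). Cdca8 (borealin) and Incenp, the scaffold, had differences of 0.28 and 0.08. All 4 genes were lowest in wild-type replicate 1 and highest in knockout replicate 2.

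In the spindle checkpoint and anaphase group 4 of 5 tested differences were above 0. Cdc20, the checkpoint's target and activator of the anaphase-promoting complex (chromosome 4, 118432901 to 118437352), was at 8.54, 17.1 and 9.32 FPKM in wild type and at 21.9, 12.7 and 8.56 FPKM in knockout. Wild-type replicate 2 and knockout replicate 1 were high and the other 4 libraries lay between 8.54 and 12.7 FPKM (0.25, SE 0.37, adjusted p = 0.842). Ube2c was at 15.3, 48.8 and 35.1 FPKM in wild type and at 24.0, 40.1 and 25.3 FPKM in knockout, with both lowest values in replicate 1 (-0.04, SE 0.42, adjusted p = 0.981). Mad2l1, Bub1b and Ttk, proteins of the checkpoint itself, had differences of 0.29, 0.24 and 0.05. Bub1, the checkpoint kinase at kinetochores, was below the filter but did not overlap between the groups, at 0.385, 0.620 and 0.736 FPKM in wild type and 0.929, 1.62 and 1.05 FPKM in knockout. Of all genes tested, a set without Bub1, 7.09% did not overlap in that direction. With no filter Bub1 had a difference of 0.47 (SE 0.17, limma adjusted p = 0.408). Espl1, separase, which cleaves cohesin at anaphase, was below the filter at 0.346 to 0.874 FPKM over all libraries.

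Among spindle pole and motor genes 6 of 7 differences were above 0, from -0.09 for Nusap1 to 0.32 for Kif11. Aurka, the centrosomal Aurora kinase (chromosome 2, 172356190 to 172370535), was at 3.64, 9.47 and 6.11 FPKM in wild type and at 6.43, 8.76 and 6.12 FPKM in knockout. The knockout libraries lay inside the wild-type range (0.19, SE 0.31, adjusted p = 0.853). Its activator Tpx2 was at 1.72, 5.10 and 3.04 FPKM and at 4.45, 4.13 and 2.47 FPKM, also inside that range (0.18, SE 0.33, adjusted p = 0.877). Kif11, the motor that pushes spindle poles apart, was at 0.647, 1.21 and 0.897 FPKM in wild type and at 1.37, 2.17 and 0.784 FPKM in knockout, where 1 knockout library was low and 2 were above every wild-type library (0.32, SE 0.25, adjusted p = 0.689). Nusap1, a microtubule bundling protein, was at 1.55 to 4.22 FPKM in wild type and 1.91 to 4.03 FPKM in knockout.

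Of the midzone and cytokinesis genes 4 of 5 tested differences were above 0. Kif20a, the midzone kinesin, was at 2.33, 3.02 and 1.55 FPKM in wild type and at 7.07, 2.10 and 2.22 FPKM in knockout, so knockout replicate 1 alone was above 3.02 FPKM (0.41, SE 0.39, adjusted p = 0.744; -0.04 without that library). Racgap1, a subunit of centralspindlin, was at 2.46, 4.04 and 3.25 FPKM and at 6.18, 5.05 and 2.23 FPKM (0.31, SE 0.32, adjusted p = 0.767). Anln, the actin-binding anillin of the contractile ring, was at 0.528, 1.34 and 1.09 FPKM and at 1.39, 1.05 and 0.566 FPKM, with equal means within their spread (0.01, SE 0.24, adjusted p = 0.989). Prc1, which crosslinks midzone microtubules, had the lowest difference of all tested members, with 3.55, 9.81 and 7.56 FPKM in wild type and 4.54, 7.11 and 6.03 FPKM in knockout (-0.14, SE 0.33, adjusted p = 0.909). Kif23, the motor partner of Racgap1, was below the filter at 0.351 to 0.736 FPKM in wild type and 0.526 to 1.11 FPKM in knockout. Of the 6 genes of this group, 5 were highest in knockout replicate 1 and Prc1 in wild-type replicate 2.

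**Figure D4:**
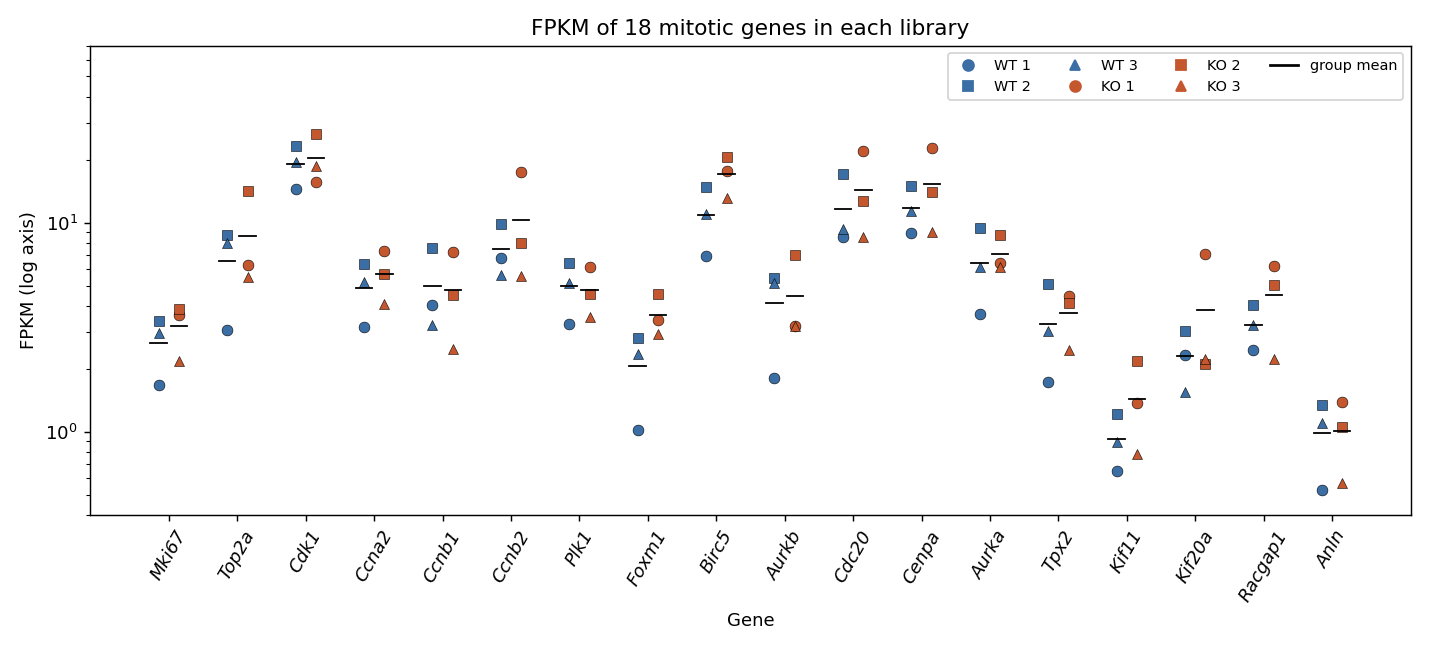
FPKM on a log axis for 18 mitotic genes in each library (blue wild type, orange knockout; circles replicate 1, squares replicate 2, triangles replicate 3), with black bars at group means over 3 libraries. Wild-type replicate 1 (blue circles) is the lowest wild-type value for most genes, while knockout replicate 1 (orange circles) tops Ccnb2, Cdc20, Cenpa and Kif20a.

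The median difference of the members had opposite signs in the 2 sets of libraries. Between L0566 (wild type) and L0567 (knockout), the replicate 1 libraries that lack Y-linked transcripts, all 42 members were higher in the knockout library, where 47.9% of all genes were, with a median log2 difference of 0.66. In the 4 libraries L0602 to L0605, 11 of 42 members had the higher mean in knockout, against 50.9% of all genes, with a median of -0.11. The sign differed between the sets for 31 members and was above 0 in both for 11, among them Foxm1, Birc5, Cdca3, Bub1b and Kif11. Replicate 1 has 1 library per genotype, so that difference has no replicate check. As an interaction term in limma over all genes, the effect in replicate 1 minus that in replicates 2 and 3 was above 0 for 35 of 36 tested members, with a median of 0.78. No member passed (lowest adjusted p = 0.477), as none of the 11839 genes did (0%), and 9 of 36 members, 25%, reached an unadjusted p under 0.05 against 9.05% of all genes. In 5 of 36 tested members, 13.9%, knockout was above wild type in replicate 1 and both knockout libraries were below both wild-type libraries in replicates 2 and 3, as in 9.05% of all genes tested. The split by library number, Y-linked transcripts and any difference in handling cannot be told apart.

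The wider machinery of mitosis also had no gene that passed the test. Of 88 further mitotic genes listed, 79 were in the table and 62 were tested. There were 52 differences above 0, where 50.6% of all genes tested were, with a median of 0.18. By limma 0 passed, while 6 of the 62 had an unadjusted p under 0.05, which 11.1% of all genes had. Psrc1, a microtubule-associated protein, was at 2.14, 2.57 and 1.495 FPKM in wild type and at 5.88, 6.98 and 3.82 FPKM in knockout, groups that did not overlap (1.08, SE 0.24, adjusted p = 0.149). Groups did not overlap for 7 of the 62 tested genes, against 16.6% of all genes tested. Cenpw and Cenpp, of the inner kinetochore, were at 0.66 and 0.88 on the log2 scale (adjusted p = 0.224 and 0.411). Wild-type replicate 1 was the lowest library for 39 of the 79 genes (24.6% of all genes tested) and knockout replicate 2 the highest for 40 (17.4%). In L0602 to L0605 46 of the 79 had the higher mean in knockout, 58.2% against 26.2% of the members, with a median of 0.0647; this difference between the lists was not tested. The 16 subunits and partners of the anaphase-promoting complex, which are expressed in resting cells too, had a median of -0.03, with 0 passed by limma and 0 at an unadjusted p under 0.05. The 11 tested cohesin genes had a median of -0.04 with the same counts.

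DNA replication genes, which act in S phase just before mitosis, took another order over the libraries. Of 31 genes 29 were tested, 28 differences were above 0, the median was 0.44, and 0 passed by limma while 6 had an unadjusted p under 0.05. Among all genes tested, 50.6% had a difference above 0 and 11.1% an unadjusted p under 0.05. Relative to each gene's mean, the median level of the replication list was -0.46 in wild-type replicate 2, where that of the mitosis members was 0.25, and 0.30 in knockout replicate 3, where that of the members was -0.26. In knockout replicate 2 both were high, at 0.53 and 0.28. Mcm10, a replication initiation factor, was at 2.09, 1.46 and 1.92 FPKM in wild type and at 3.49, 8.82 and 14.4 FPKM in knockout, with no overlap and with knockout replicate 3 highest (1.65, SE 0.42, adjusted p = 0.217). Overlap was absent for 4 of the 29 tested replication genes, against 16.6% of all genes tested. Between L0566 and L0567, 10 of 31 replication genes were higher in knockout, and in L0602 to L0605 31 of 31 were, the reverse of the mitosis members.

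**Figure D5:**
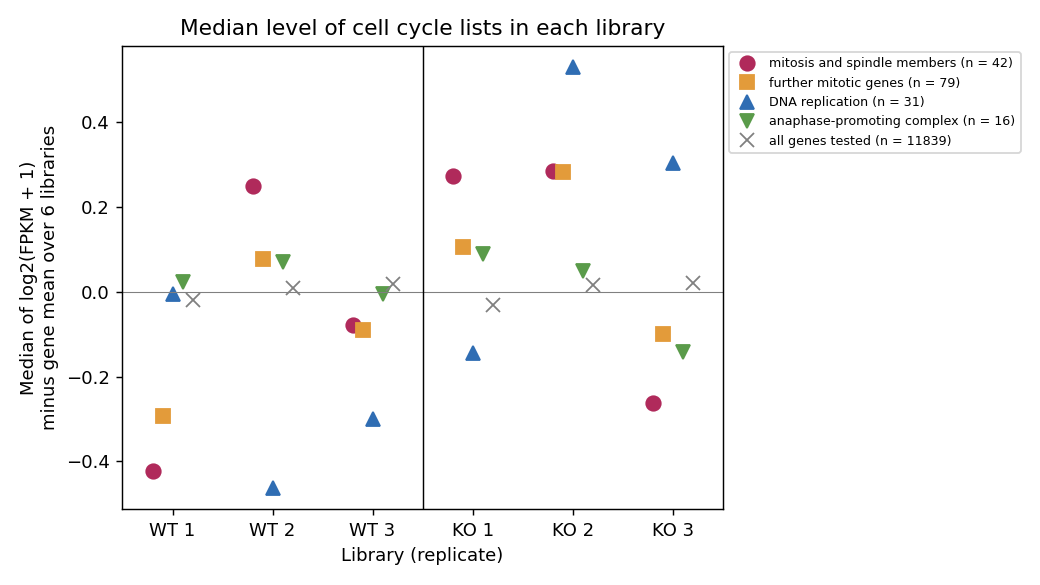
Median over the genes of each list of log2(FPKM + 1) minus the gene's mean over 6 libraries, by library (WT wild type, KO knockout; n genes in the key; points are offset sideways for clarity). Mitosis members (circles) are high in wild-type replicate 2 and low in knockout replicate 3, where DNA replication genes (triangles) are low and high in turn.

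Regulators of the cycle were mixed. Of 20 tested E2F, MuvB and B-MYB genes, 13 differences were above 0 with a median of 0.08, and 0 passed by limma while 2 had an unadjusted p under 0.05. The shares to set beside these lists are 50.6% of all genes tested above 0 and 11.1% at an unadjusted p under 0.05. E2f1 and E2f2, activators of S phase genes, were the 2 of these 20 that did not overlap between the groups, which 16.6% of all genes tested did not. E2f1 was at 1.88, 2.23 and 2.995 FPKM in wild type and 3.36, 5.18 and 4.91 FPKM in knockout (0.70, SE 0.20, adjusted p = 0.27), and E2f2 had a difference of 0.69 (adjusted p = 0.198). Of 12 cell cycle inhibitors, 5 differences were above 0, and 0 passed by limma while 1 had an unadjusted p under 0.05. That one was Cdkn2a, which encodes the cyclin-dependent kinase inhibitor INK4A and ARF, at 1.22, 1.97 and 2.05 FPKM in wild type and 0.316, 0.376 and 0.146 FPKM in knockout (-1.09, SE 0.19, adjusted p = 0.0859), again without overlap (1 of 12, against 16.6% of all genes tested). Cdkn1a, the p53 target p21, was at 0.43 (adjusted p = 0.545). Of 9 tested G1 cyclins and kinases, 0 passed by limma and 1 had an unadjusted p under 0.05, Ccne1, cyclin E1, at 0.81 (adjusted p = 0.421).

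Transcripts of other cells that divide or infiltrate were compared over the same libraries. Of 5 tested erythroid genes 5 had a difference above 0, with the heme synthesis gene Alas2 at 4.29, 29.4 and 16.1 FPKM in wild type and 33.2, 102 and 103 FPKM in knockout (2.35, adjusted p = 0.285), and the 8 erythroid genes in the table summed to 248 to 316 FPKM in wild type and 344 to 552 FPKM in knockout. The erythroid transcription factor gene Klf1 was at 0.217 to 0.767 FPKM over all libraries. The 6 B and plasma cell genes summed to 24.1 and 26.9 FPKM in knockout replicates 1 and 3 and to 1539 to 7702 FPKM in the other 4 libraries, and the 9 T and NK cell genes to 17.7 to 25.1 FPKM in wild type and 3.58 to 18.5 FPKM in knockout. The B and plasma cell sum was mostly that of Igkc, at 17.6 to 7538 FPKM. In knockout replicates 1 and 3 Igkc, Jchain, Mzb1, Cd79a, Ighm and Cd79b were each lower than in every other library. The gap was smaller for Ighm, at 3.89 and 2.91 FPKM in these 2 libraries against 4 to 6.63 FPKM in wild type. It was also smaller for Cd79b, at 1.33 and 0.541 FPKM against 1.895 to 2.24 FPKM. Mitotic transcripts and this sum were both high in knockout replicate 2 and wild-type replicate 2 and both low in knockout replicate 3. Knockout replicate 1 had high mitotic transcripts and a low sum. In wild-type replicates 1 and 3 the median member was below its mean, with sums of 1539 and 5525 FPKM. The 8 macrophage and monocyte genes in the table summed to 506 to 525 FPKM in wild type and 301 to 470 FPKM in knockout, the 4 neutrophil genes to 33.5 to 59.5 and 14.0 to 27.4 FPKM, the 8 stellate cell and fibroblast genes to 191 to 281 and 118 to 207 FPKM, and the 7 endothelial genes to 36.8 to 62.7 and 18.7 to 60.1 FPKM. Differences were below 0 for 7 of 7 tested macrophage, 3 of 3 neutrophil, 5 of 5 T and NK cell, 5 of 6 B and plasma cell, 7 of 8 stellate and 7 of 7 endothelial genes. Over all genes tested, 50.6% were above 0. Of 7 cholangiocyte genes 5 were below 0, with a median of -0.58. Sox9, a transcription factor of bile duct cells, was at 2.76, 3.79 and 4.93 FPKM in wild type and 1.18, 0.819 and 1.16 FPKM in knockout (-1.21, SE 0.21, limma adjusted p = 0.0815), and Epcam, an adhesion protein of these cells, was at -0.67 (adjusted p = 0.307), both without overlap between the groups. They were the 2 of these 7 genes without overlap, against 16.6% of all genes tested. The summed level of the 7 genes, 149 to 390 FPKM in wild type and 225 to 430 FPKM in knockout, was mostly that of Spp1, at 107.8 to 406 FPKM. In none of these marker lists did a gene pass by limma. The part of these cells in the members' levels was not tested.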

How the data were processed

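RNA-seq of total liver RNA gave 6 libraries. What the authors deposited is a table of gene FPKM on the log2 scale. TopHat2 (2.0.6), Cufflinks and the builds mm10 and GRCm38 appear in the submitters' processing notes; no annotation or gene filter is named. An offset of 0.000977 had been added before the log, so that -10 stands for 0, and it was removed: of 60079 values between 1 and 50 FPKM 100% then had 6 significant digits (relative tolerance 3e-08) and 0% before. Values were taken to log2(FPKM + 1), which understates changes of low genes, and 11839 genes with at least 1 FPKM in at least 3 libraries were tested with limma 3.58.1 (R 4.3.3; lmFit, eBayes with trend, two-sided, Benjamini-Hochberg over all genes, threshold 0.05). Errors are limma standard errors, or SD over 3 libraries.

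The members and gene lists were chosen with earlier results of these data known. Members written out in full were 20 fixed genes, the 3 smallest p-values, the 3 largest and 3 smallest differences, the 3 highest means, and, by range, the 6 below the filter. Other lists name up to 3 genes with the smallest p. Further genes named (Nuf2, Ndc80, Spc25, Cdca8, Incenp, Mad2l1, Bub1b, Ttk, Ccnf, Nek2, Klf1, Cd79a, Cd79b, Ighm, Spp1, Alb) were chosen after their values were seen. Coordinates of genes come from the GENCODE M21 annotation (GRCm38) and promoters from RefSeq (GRCm38.p6). Alternatives were other pseudocounts, filters, scalings and variance models, a replicate block, a library number term, the libraries L0602 to L0605 alone, and leaving out each library. The fit was tested on simulated data. Figures were drawn with matplotlib 3.10.9.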

Additional observations from a re-analysis of the deposited data

Results flagged for a closer look

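For 5 of 36 tested members (13.9%, against 9.05% of all genes tested) the knockout library was above the wild-type library in replicate 1, while in replicates 2 and 3 the knockout values all lay below the wild-type values. Tested by limma as an interaction, the replicate 1 effect exceeded that of replicates 2 and 3 on the log2 scale by 1.16 for Plk1 (SE 0.32), 1.36 for Hmmr, a spindle and hyaluronan-binding protein (SE 0.37), and 1.01 for Ect2, the exchange factor that activates RhoA at the cleavage plane (SE 0.30). The same quantity was 0.951 for Anln (SE 0.37) and 0.632 for Prc1 (SE 0.32). The 5 were picked for this pattern, so these values describe them. None passed over all genes (adjusted p = 0.483, 0.477, 0.507, 0.55 and 0.603), and replicate 1 holds 1 library per genotype.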

How the results depend on the processing

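No member was called by limma in any of 17 alternatives (lowest adjusted p 0.245). The count at an unadjusted p under 0.05, 0 as reported, was 1 with a pseudocount of 5, with no filter and with the library number term, 2 with quantile normalization and with the replicate block, and 0 to 3 with 1 library left out. The 30 differences above 0 became 13 (of 17 tested) with a filter at 5 FPKM, 9 in L0602 to L0605 alone, and 15 to 36 with 1 library left out, and their median, 0.17, became -0.109 in L0602 to L0605 and -0.0381 to 0.336 with 1 library left out; counts of differences above 0 were added after seeing the data. Over all genes, the 16 higher calls became 10 with no filter, 33 with the library number term, 26 in L0602 to L0605 and 0 to 30 with 1 library left out, and the 42 lower calls 0 to 40. With the replicate block 0 were called in either direction (776 on the higher and 942 on the lower side had an unadjusted p under 0.05). Same-numbered libraries correlated in their deviations from group means by 0.346, 0.133 and 0.0212 for replicates 1, 2 and 3, and replicates 2 and 3 of the knockout correlated best with replicates 3 and 2 of wild type (0.26 and 0.0511), so the block rests on a shared number.

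Of 23 named members tested, 336 of 382 alternative values kept their sign and 46 did not. The other filters and variance models, the replicate block and the library number term leave a difference unchanged by design. Their values could not change sign and add to the count that kept it. In L0602 to L0605 alone the differences were -0.305 for Anln, -0.0501 for Aurka, -0.117 for Aurkb, -0.209 for Ccna2, -0.153 for Ccnb2, -0.256 for Cdc20, -0.196 for Cenpa, -0.0186 for Kif20a, -0.0869 for Mki67, -0.0644 for Racgap1 and -0.233 for Tpx2. With quantile normalization they were 0.00152 for Ccnb1 and 0.0276 for Plk1. With 1 library left out they ranged from -0.166 to 0.179 for Anln, -0.105 to 0.483 for Aurka, -0.271 to 0.325 for Aurkb, -0.037 to 0.376 for Ccna2, -0.371 to 0.246 for Ccnb1, -0.112 to 0.641 for Ccnb2, -0.0832 to 0.547 for Cdc20, -0.117 to 0.247 for Cdk1, -0.03 to 0.593 for Cenpa, -0.0894 to 0.289 for Cks2, -0.0366 to 0.652 for Kif20a, -0.00738 to 0.401 for Mki67, -0.378 to 0.141 for Nusap1, -0.26 to 0.134 for Plk1, -0.499 to 0.125 for Prc1, -0.059 to 0.569 for Top2a, -0.111 to 0.472 for Tpx2 and -0.498 to 0.306 for Ube2c. The cause was not tested. Absolute depth is unknown, so no counting intervals are given.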
